A study of Mus musculus with 24 samples.

Results

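The response of the liver to a 24 h fast was described in mice whose liver lacks Ppara, labelled PPARaLKO and written LKO here. The arrays titled as fasted LKO were set against those titled as fed LKO, which took 12 of the 24 arrays of the series, 6 fasted and 6 fed animals, and 17331 genes were tested. Fasted LKO animals carried the liver deletion of Ppara and had no food for 24 h; fed LKO animals carried the same deletion and ate ad libitum. Fasted WT and fed WT animals, in which liver Ppara is intact, had the same 2 feeding states and served to test whether a response differed without Ppara. All were male C57Bl/6J mice of 8 weeks on a Safe 04 chow diet, killed at zeitgeber time 16 h, which falls in the dark phase when mice normally eat. The labels used here give neither the Cre driver nor the deleted exons. The series text describes 24 individual mice, but the animal numbers of the WT arrays show that 2 animals, 1 in each WT group, were hybridised on 2 arrays each, so the WT groups hold 5 animals each. Whole liver was hybridised, so hepatocytes dominate the signal.

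PPARA is a nuclear receptor that binds fatty acids released from adipose tissue and, in fasting hepatocytes, switches on the genes of fatty acid oxidation and ketone body formation. Other fasting signals act in parallel. Glucagon works through cAMP and CREB, glucocorticoids through their own receptor, and the fall in insulin through FOXO1, while shortage of amino acids or damage to mitochondria feeds into the integrated stress response, in which ATF4 and partner factors raise a common set of genes. Comparing LKO livers in the 2 feeding states shows which parts of the fasting programme still ran when the hepatic receptor was missing.

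A level is the log2 signal of a gene after the 75th percentile of its array was subtracted, so levels can be compared between livers for 1 gene but not between genes. A change is the fasted mean minus the fed mean on that scale, given ± its standard error, and an adjusted p under 0.05 was called. In LKO livers 8571 of 17331 genes were called, or 49.5%; 3972 were higher (22.9%) and 4599 lower (26.5%), and the median change over all genes was -0.04. At least 2-fold changes were fewer, 1205 genes (6.95%), with 589 genes higher (3.4%) and 616 lower (3.55%). For 4698 genes (27.1%) the 6 fasted and 6 fed animals did not overlap, the fasted ones being higher for 2266 (13.1%) and lower for 2432 (14%). The LKO change differed from the WT change for 3136 genes (18.1%), being above it for 1322 (7.63%) and below it for 1814 (10.5%). Of the 589 genes at least 2-fold higher in fasted LKO livers, 192 had a change called above that of WT livers, 27 a change called below it, and for 370 no difference was called.

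The arrays had 50.56 to 58.83% of probes well above background in the LKO livers, and no probe was saturated. Ppara itself still gave signal in LKO livers, 4.86 to 5.17 (median 5.11) in the fasted group, against 3.93 to 4.97 (median 4.73) in the fed group. The WT group means were 5.93 ± 0.13 in fasted and 5.29 ± 0.20 in fed livers (SD, n = 5 each). Where its probe lies relative to the deleted part is not stated, so its level does not test the labels. The first principal component of the 12 LKO livers held 49.25% of the variance and separated all 6 fasted from all 6 fed animals. On the second (11.61%), fed LKO replicate 3 stood at 59.37 while the other 11 lay between -17.78 and 2.61. In whole-liver RNA, fewer cells of a type and less RNA per cell cannot be told apart.

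**Figure D1:**
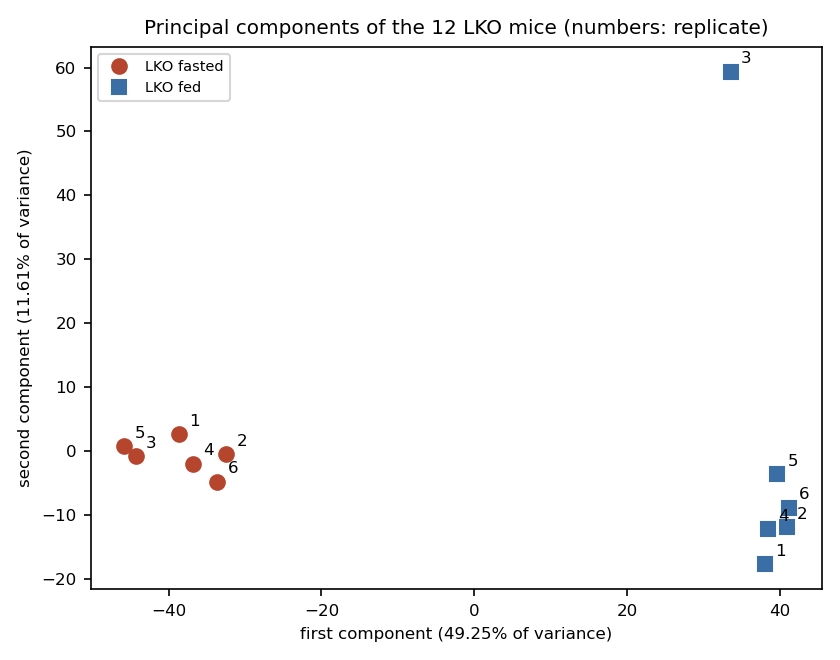
Principal components of the 12 LKO livers from all 17331 genes, with fasted animals in 1 colour and fed animals in the other and the replicate number beside each point. The first component (49.25% of the variance) separates the feeding states and the second (11.61%) places fed replicate 3 at 59.37, apart from the other 11 livers.

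Genes of the immediate early class and regulators of the integrated stress response rose in fasted LKO livers, many of them further than in fasted WT livers. Immediate early genes encode transcription factors and signal phosphatases that are induced within minutes of a stimulus. Of 39 tested, 33 were higher and 0 lower in fasted LKO livers, with a median change of 1.09 against -0.04 over all genes, and the median in WT livers was 0.51. The change was called above that of WT for 17 of the 39 and below it for 1, against 7.63% and 10.5% over all genes. Of the 27 stress response regulators tested, 17 were higher and 1 lower, with a median of 0.49 in LKO and 0.05 in WT livers, and the change was above that of WT for 11. Leaving out any 1 of the 22 animals kept the immediate early count between 33 and 35 and the stress response count at 17 or 18. Of 25 genes of amino acid synthesis and one-carbon metabolism, 6 were higher and 11 lower (median -0.31). Their change was called above that of WT for 1 and below it for 7. Of 22 aminoacyl-tRNA synthetase genes, 3 were higher and 8 lower (median -0.11). Over all genes 22.9% were called higher and 26.5% lower.

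Nr4a1, an orphan nuclear receptor that glucagon induces through cAMP (array probe at chr15:101105071-101105130, mm9), had levels of 1.59 to 2.50 (median 2.26) in fasted LKO livers, against -1.35 to -0.61 (median -0.89) in fed LKO livers. The groups lay far apart, and the change was 3.07 ± 0.15 (adjusted p = 7.06e-12), an 8.38-fold rise. In WT livers its change was 0.34 (adjusted p = 0.10), and the difference between the 2 responses was 2.73 ± 0.22 (adjusted p = 1.80e-07). Klf6, a zinc finger factor of the rapid response, showed the same contrast, at 2.19 to 3.22 (median 2.91) in fasted LKO livers, against 0.23 to 0.39 (median 0.28) in fed LKO livers. It rose by 2.54 ± 0.12 (adjusted p = 6.71e-12) in LKO livers, while its WT change was 0.28 (adjusted p = 0.0926); the difference was 2.26 (adjusted p = 1.52e-07). All 6 fasted LKO livers lay above all 6 fed ones for both genes.

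Fos, which pairs with Jun in the factor AP-1, had levels of -1.04 to -0.04 (median -0.18) in fasted LKO livers, against -4.71 to -2.45 (median -4.03) in fed LKO livers, with no overlap and a change of 3.46 ± 0.27 (adjusted p = 3.89e-09). Jun changed by 1.97 (adjusted p = 2.09e-07) and the related Fosb by 1.47 (adjusted p = 1.52e-06). Each of the 3 exceeded its WT change, by 2.35 (adjusted p = 4.73e-04) for Fos, by 1.05 (adjusted p = 0.0255) for Jun and by 0.98 (adjusted p = 0.0172) for Fosb. Maff, a small MAF protein that pairs with other leucine zipper factors, had levels of 2.00 to 2.65 (median 2.36) in fasted LKO livers, against -1.70 to -0.23 (median -1.12) in fed LKO livers. Its rise was 3.41 ± 0.22 (adjusted p = 3.54e-10) in LKO livers against 1.47 in WT livers, a difference of 1.93 (adjusted p = 4.44e-04). Dusp8, a phosphatase of MAP kinases, rose by 3.01 ± 0.28 (adjusted p = 3.53e-08) with no overlap, and Btg2, an antiproliferative factor, by 2.61 ± 0.30 (adjusted p = 4.41e-07). For Egr2 the rise was 2.89 ± 0.32 (adjusted p = 3.56e-07), though only 1 of 6 fed LKO livers had it well above background against 6 of 6 fasted ones. Myc rose by 1.42 ± 0.39 (adjusted p = 0.00462), but its fasted and fed ranges overlapped and no difference from WT was called (difference 1.17, adjusted p = 0.173), though without fed WT replicate 1 it was 1.55 (adjusted p = 0.0405).

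Within the stress response, Gdf15, a secreted hormone that lowers food intake, had a fasted range of 4.82 to 5.60 (median 5.30) in LKO livers against -0.01 to 0.99 (median 0.37) in fed ones. This was a 28.8-fold rise, and it exceeded the WT change of 1.93 by 2.92 ± 0.34 (adjusted p = 7.17e-06). Atf3, a repressor and activator induced by ATF4, rose by 4.38 ± 0.25 (adjusted p = 5.12e-11), and its WT change was 0.93. Ddit3, which encodes CHOP, moved in opposite directions, with a change of 1.29 (adjusted p = 1.01e-05) in LKO livers and -0.66 (adjusted p = 0.013) in WT livers. Its 2 probes gave LKO changes of 0.32 and 1.29. Atf4 itself, which is controlled largely at translation, rose by only 0.36 (adjusted p = 9.85e-04), with overlapping groups. Nupr1, a small chromatin protein of the same pathway, rose by 1.77 (adjusted p = 0.00378); fed LKO replicate 3 had 2.24 where the other 5 fed livers had -0.86 to -0.45, and that animal alone made the groups overlap. The p53 targets Trp53inp1 and Plk3 rose by 2.16 (adjusted p = 3.09e-08) and 1.98 (adjusted p = 3.17e-05), and the rise of Trp53inp1 exceeded that in WT livers by 1.46 (adjusted p = 0.00187). Over the p53 list as a whole 8 of 23 were higher and 7 lower (22.9% and 26.5% over all genes), with a median of -0.06. Gdf15 and Btg2 stand in that list too.

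**Figure D2:**
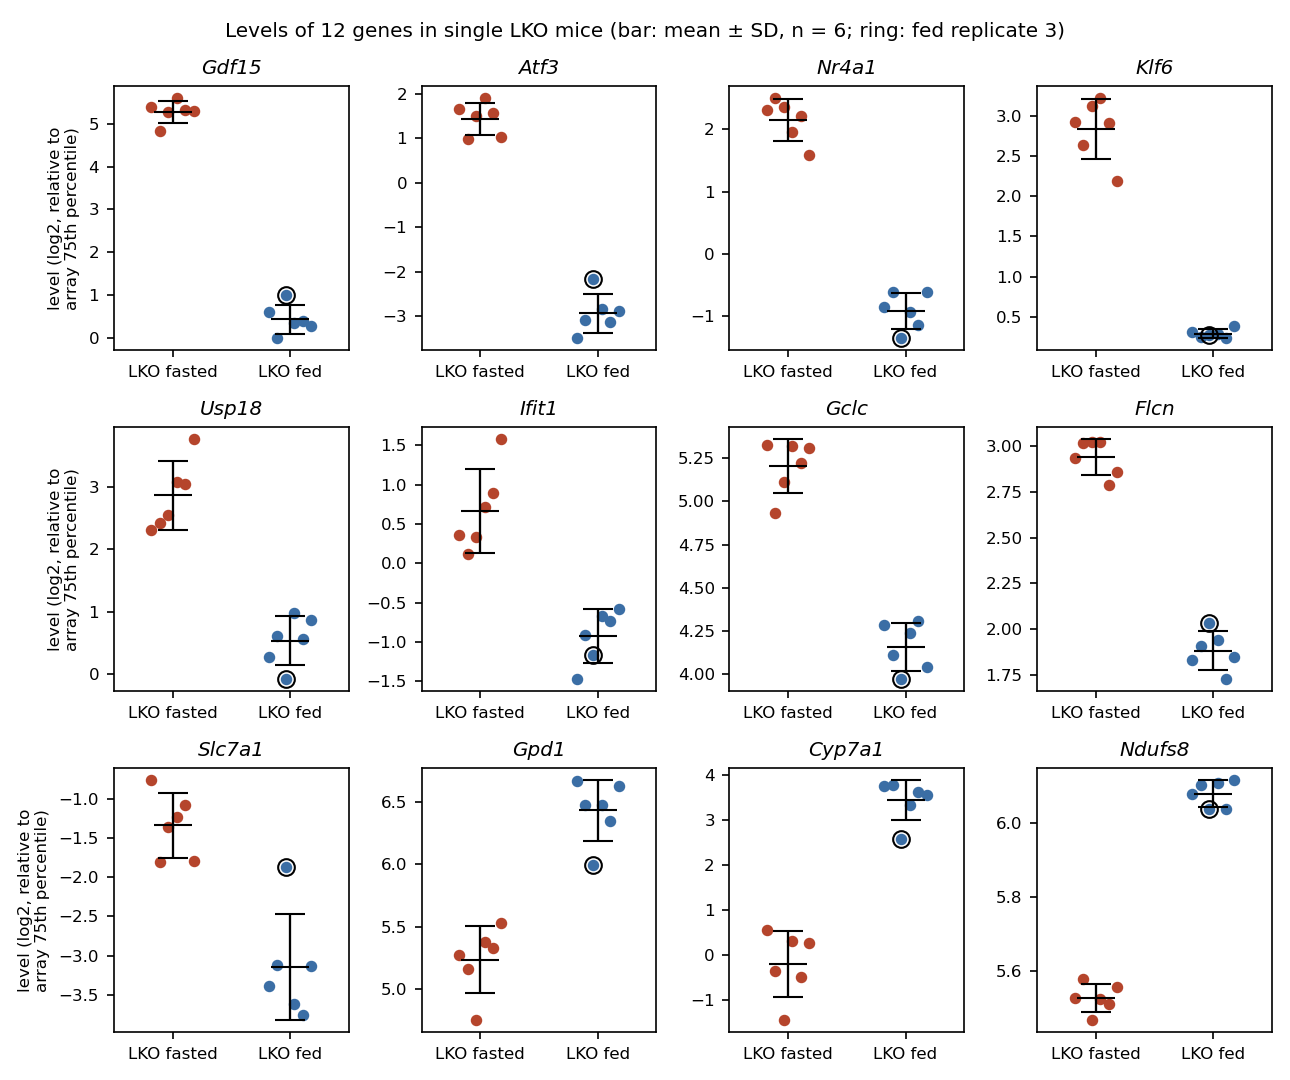
Levels of 12 genes in each LKO liver, as log2 signal relative to the array's 75th percentile, with the 6 fasted animals left of the 6 fed animals, bars at the mean ± SD and a ring round fed replicate 3. Fasted and fed points do not overlap in any of the 12 panels, and Gdf15 shows the widest gap, at 5.28 ± 0.25 in fasted against 0.43 ± 0.34 in fed livers (SD, n = 6 each).

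Interferon-stimulated genes rose in fasted LKO livers, and many had a response called above that of WT livers. These genes are induced by type I interferon and act against viruses. Of 38 tested genes of interferon response and antigen presentation, 20 were higher and 5 lower in fasted LKO livers, with a median change of 0.40; in WT livers 2 were higher and 15 lower, with a median of -0.34. The difference was called for 24 of the 38, all with the LKO change above the WT change. Over all genes 22.9% were called higher in fasted LKO livers, 26.5% lower and 7.63% above WT. Without each animal in turn, 19 to 21 members were higher and 22 to 27 differed from WT.

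Mx1, a dynamin-like antiviral GTPase (array probe at chr16:97668644-97668703, mm9), had levels of -1.90 to -0.41 (median -1.48) in fasted LKO livers, against -3.29 to -2.81 (median -3.11) in fed LKO livers. The ranges were well apart, the change was 1.70 ± 0.20 (adjusted p = 6.10e-07), and the difference from the WT change of -0.27 was 1.97 ± 0.30 (adjusted p = 1.34e-04). The means were -1.37 ± 0.54 in fasted LKO and -3.08 ± 0.23 in fed LKO livers (SD, n = 6 each) and -3.37 ± 0.36 in fasted WT and -3.10 ± 0.15 in fed WT livers (SD, n = 5 each), so the fasted LKO mean was the highest of the 4. Ifit1, which binds foreign RNA caps, behaved in the same way at 0.11 to 1.58 (median 0.54) in fasted LKO livers, against -1.48 to -0.58 (median -0.82) in fed LKO livers. Its change was 1.59 ± 0.19 (adjusted p = 8.87e-07) in LKO and -0.19 in WT livers, a difference of 1.78 (adjusted p = 2.35e-04). Usp18, the protease that removes ISG15 and damps interferon signalling, rose by 2.33 ± 0.21 (adjusted p = 2.31e-08), and Rsad2, the antiviral enzyme viperin, by 2.18 ± 0.18 (adjusted p = 6.66e-09). These 2 also rose in WT livers, by 0.61 (adjusted p = 0.0397) and 0.64 (adjusted p = 0.0116), and the LKO change exceeded it by 1.72 (adjusted p = 7.61e-04) and 1.53 (adjusted p = 5.11e-04). Ifit3 (1.34, adjusted p = 7.12e-06), Ifit2 (1.10, adjusted p = 2.80e-04) and Isg15 (0.73, adjusted p = 6.11e-04) rose without overlap, as did the transcription factors Irf9 (1.03, adjusted p = 4.74e-08) and Irf7 (0.89, adjusted p = 4.23e-04). Ifit3 has a near-identical neighbouring copy in the mouse genome, so its value may hold both.

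The level of interferon genes varied between fasted LKO animals. Ifit1 stood at 1.58 in fasted replicate 6, 0.89 in replicate 5 and 0.72 in replicate 4, and at 0.35, 0.11 and 0.34 in replicates 1, 2 and 3. Mx1, Usp18, Rsad2, Ifit2, Ifit3 and Isg15 were likewise highest in replicate 6, and each was higher in replicates 4, 5 and 6 than in the other 3. All 6 fasted animals were nevertheless above all 6 fed animals for each of these genes. Genes of antigen presentation gave other values. B2m, the light chain of class I molecules, changed by -0.18 (adjusted p = 0.0176), with probes between -0.18 and 0.36 whose mean changed by 0.09. H2-K1, a class I heavy chain, changed by -0.04 (adjusted p = 0.539), and without fed LKO replicate 3 it was called at -0.10 (adjusted p = 0.0425). Ciita, the master regulator of class II genes, fell by 1.10 on the log2 scale (adjusted p = 2.60e-06), with a WT change of -1.20. Signal summed over 11 lymphocyte markers was 50.49 to 59.74 in fasted against 31.97 to 40.68 in fed LKO livers, without overlap. Most of that sum was Cd4, which rose by 0.77 (adjusted p = 5.30e-07), and the other 10 summed to 2.733 to 3.28 in fasted against 3.294 to 3.999 in fed LKO livers. The sum over 14 macrophage markers was 75.14 to 110.8 in fasted against 94.45 to 133.9 in fed LKO livers, in units of each array's 75th percentile.

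**Figure D3:**
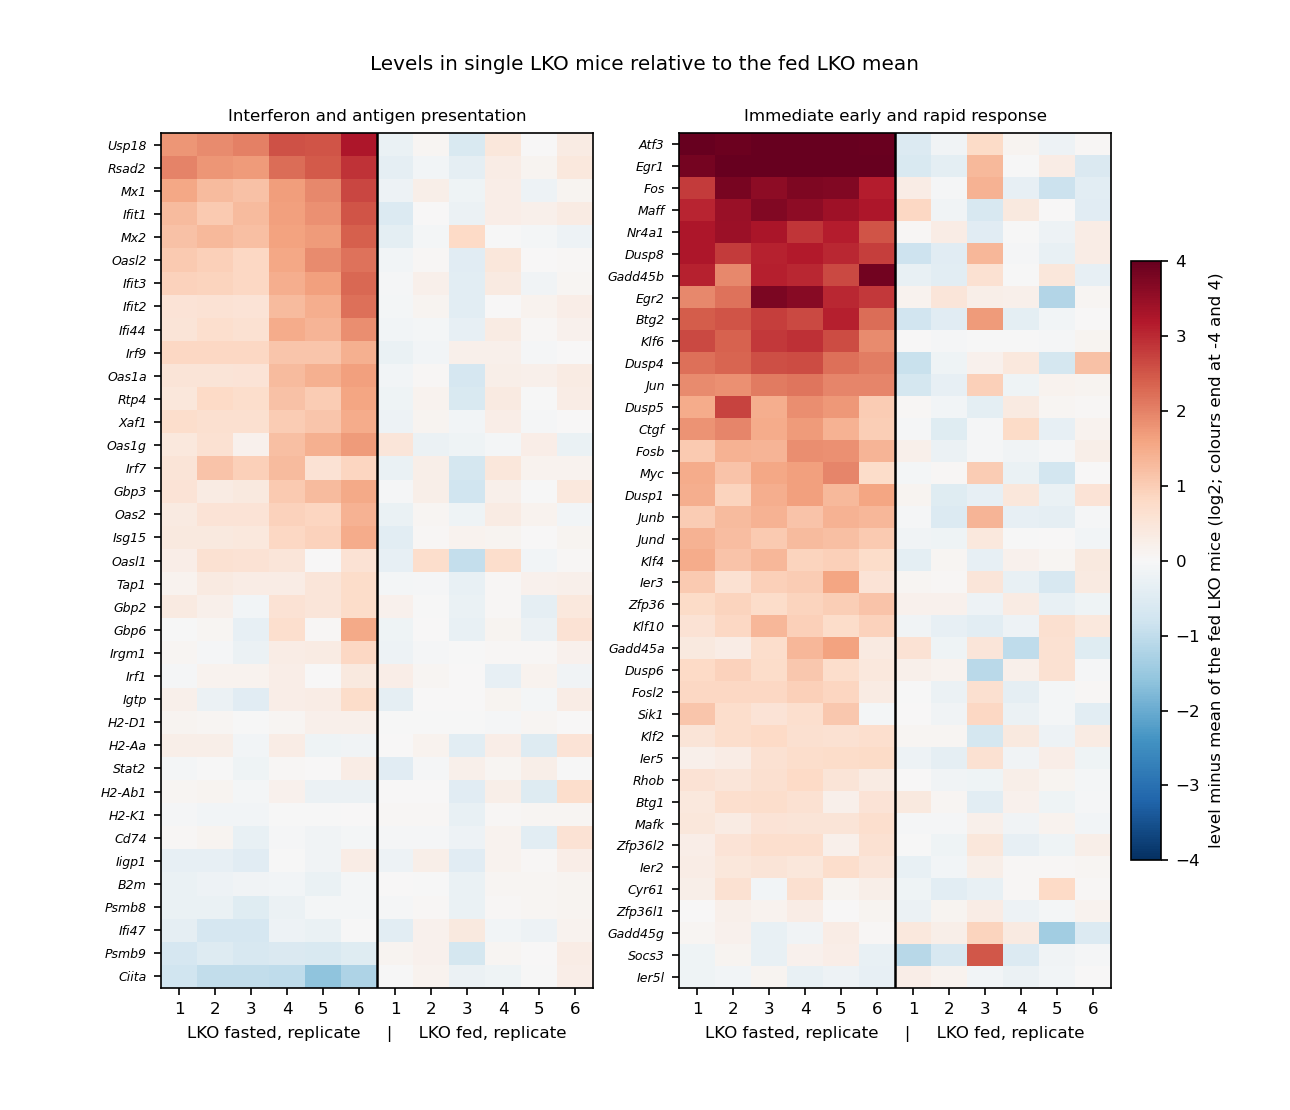
Level of genes of interferon response and antigen presentation (left) and of 39 immediate early genes (right) in each LKO liver, minus the mean of the fed LKO livers, in log2 units, with the 6 fasted animals left of the 6 fed animals and genes ordered by their change. The rows of Usp18, Rsad2, Mx1 and Ifit1 in the left panel are highest in fasted replicate 6, where Ifit1 stood at 1.58 against -0.58 in fed replicate 6, while the lowest row, Ciita, changed by -1.10.

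Promoter sequence was examined for the elements that read these pathways, and a stretch of 60 bases around the element is shown, on the strand of the gene, for genes whose rise is described here. RefSeq promoter windows, 250 bases before to 50 after the start, were matched for 12916 of the 17331 genes (build GRCm38.p6; array positions are on mm9). The C/EBP-ATF composite element, searched as TGATGNAA on both strands, occurred in 3.27% of all windows, in 7.18% of the 418 windows of genes at least 2-fold higher in fasted LKO livers, in 5.14% of the 467 of genes at least 2-fold lower, and in 7 of 24 windows of the stress response list (29.2%). The element was also in 4 of 19 windows of the gluconeogenesis list (21.1%). In the list of glucagon, cAMP and FOXO1 signalling it was in 0 of 23. The first 4 lines show it in capitals in the windows of Atf3, Fgf21, Nupr1 and Herpud1.
Atf3, chr1:191183410-191183469, minus strand: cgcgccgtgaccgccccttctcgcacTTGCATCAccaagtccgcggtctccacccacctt
Fgf21, chr7:45615596-45615655, minus strand: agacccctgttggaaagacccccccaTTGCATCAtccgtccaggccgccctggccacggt
Nupr1, chr7:126625547-126625606, minus strand: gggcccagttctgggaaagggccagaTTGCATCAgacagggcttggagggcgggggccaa
Herpud1, chr8:94386291-94386350, plus strand: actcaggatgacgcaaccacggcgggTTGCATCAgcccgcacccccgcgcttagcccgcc
Of these genes, Fgf21, the fasting hormone, averaged -0.39 ± 0.63 in fasted and -6.40 ± 1.09 in fed LKO livers (SD, n = 6 each), and its WT change was 5.53 (adjusted p = 1.43e-07); only 1 of 6 fed LKO livers had it well above background. Herpud1, which works in removal of misfolded proteins from the endoplasmic reticulum, rose by 0.71 (adjusted p = 6.19e-06) against a WT change of -0.03.

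The interferon-stimulated response element, searched as GAAANNGAAA on both strands and added after the interferon values had been seen, occurred in 3.85% of all windows, in 4.55% of those at least 2-fold higher and in 3.21% of those at least 2-fold lower. In the interferon list it was present in 12 of 27 windows (44.4%). The windows of Ifit1, Ifit3, Rsad2 and Isg15 carry it in capitals, shown as its reverse complement where the match lies on the other strand, and overlapping matches run together in Isg15.
Ifit1, chr19:34640759-34640818, plus strand: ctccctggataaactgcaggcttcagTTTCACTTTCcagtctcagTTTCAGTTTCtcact
Ifit3, chr19:34583347-34583406, plus strand: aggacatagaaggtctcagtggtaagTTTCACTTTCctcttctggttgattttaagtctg
Rsad2, chr12:26456539-26456598, minus strand: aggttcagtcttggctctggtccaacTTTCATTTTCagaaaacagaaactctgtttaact
Isg15, chr4:156200863-156200922, minus strand: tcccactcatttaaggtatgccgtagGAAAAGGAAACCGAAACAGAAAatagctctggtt
These are descriptions of letters near the start, and no binding was measured.

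The core of the cAMP response element, searched as TGACGTC on both strands, was present in 5.36% of all windows, in 6.46% of the windows of genes at least 2-fold higher, in 3.21% of those at least 2-fold lower, and in 5 of 31 windows of the immediate early list (16.1%). The core was also in 4 of 19 gluconeogenesis windows (21.1%) and 3 of 20 windows of the glucocorticoid list (15%). In the list of glucagon, cAMP and FOXO1 signalling it was in 2 of 23 (8.7%), and in the glycolysis list in 0 of 23. Capitals mark it in the windows of Maff, Dusp8, Btg2 and Flcn, where it extends to its palindrome and so matches both strands.
Maff, chr15:79347460-79347519, plus strand: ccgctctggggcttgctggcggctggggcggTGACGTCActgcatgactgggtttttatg
Dusp8, chr7:142095358-142095417, minus strand: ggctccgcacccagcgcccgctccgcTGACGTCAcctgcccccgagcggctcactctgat
Btg2, chr1:134079288-134079347, minus strand: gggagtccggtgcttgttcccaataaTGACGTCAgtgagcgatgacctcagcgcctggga
Flcn, chr11:59810055-59810114, minus strand: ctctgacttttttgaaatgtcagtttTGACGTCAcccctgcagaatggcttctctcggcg
The FOXO element GTAAACA was in 3.38% of all windows, 4.07% of those higher and 3.85% of those lower. The E-box CACGTG was in 10.7% of all windows, 14.1% of those higher, 7.92% of those lower and 15 of 40 windows of the autophagy and lysosome list (37.5%). Other lists also held the E-box often, with 7 of 23 windows for glucagon, cAMP and FOXO1 signalling (30.4%) and 6 of 23 for glycolysis (26.1%). The CCAAT box was in 42.4% of all windows, 41.6% of those higher and 52.9% of those lower.

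Flcn and Fnip1 encode partner proteins that pass amino acid state from the lysosome to the kinase mTORC1 and hold back the factors TFEB and TFE3. Flcn had levels of 2.79 to 3.02 (median 2.98) in fasted LKO livers, against 1.73 to 2.03 (median 1.88) in fed LKO livers. It rose by 1.06 ± 0.08 (adjusted p = 1.11e-09) with a tight spread, while WT livers changed by 0.15 (adjusted p = 0.157); the difference was 0.91 ± 0.11 (adjusted p = 1.64e-05). Fnip1 rose by 1.10 ± 0.08 (adjusted p = 1.30e-09), more than its WT change of 0.49 (difference 0.61, adjusted p = 0.0012). Of 51 autophagy and lysosome genes tested, 22 were higher and 10 lower, with a median change of 0.07. Over all genes 22.9% were called higher and 26.5% lower. Sqstm1, the autophagy receptor p62, rose by 1.47 ± 0.07 (adjusted p = 6.79e-12) and exceeded WT by 0.65 (adjusted p = 2.90e-04). Gabarapl1, an autophagosome protein, and Ctsl, a lysosomal protease, rose by 1.15 (adjusted p = 1.71e-09) and 1.15 (adjusted p = 5.89e-09), and for neither was a difference from WT called (differences 0.35, adjusted p = 0.0635 and 0.25, adjusted p = 0.239). The Gabarapl1 difference was called with normexp background correction (0.35, adjusted p = 0.0461), after quantile normalization (0.40, adjusted p = 0.0272), in the authors' deposited table (0.41, adjusted p = 0.0276) and without fed LKO replicate 1 (0.40, adjusted p = 0.0262). That of Ctsl was called without fed LKO replicate 3 (0.34, adjusted p = 0.0295). Among 39 ubiquitin and proteasome genes, 26 were higher and 2 lower, with changes that were mostly small (median 0.23). For 15 of them the change was called below that of WT and for 0 above it, against 10.5% and 7.63% over all genes. The ubiquitin ligase subunits Fbxo31 and Fbxo32 rose by 1.14 (adjusted p = 3.66e-08) and 0.90 (adjusted p = 1.09e-05), although the 2 probes of Fbxo31 gave -0.02 and 1.14.

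Antioxidant genes of the NRF2 pathway divided. Hmox1, which degrades heme, had levels of 3.95 to 5.46 (median 4.85) in fasted LKO livers, against 1.93 to 3.04 (median 2.05) in fed LKO livers. It rose by 2.62 ± 0.24 (adjusted p = 2.15e-08) and exceeded its WT change of 1.17 by 1.45 (adjusted p = 0.00692). Srxn1, which repairs oxidised peroxiredoxins, rose by 2.29 ± 0.15 (adjusted p = 4.90e-10), again above WT (difference 1.40, adjusted p = 2.90e-04). Gclc, the catalytic subunit of glutathione synthesis, rose by 1.05 ± 0.10 (adjusted p = 3.01e-08) where the WT change was -0.14 (adjusted p = 0.294), and the difference was 1.19 (adjusted p = 1.30e-05). Its regulatory partner Gclm changed by 0.02 (adjusted p = 0.873) and Nqo1 by 0.70 (adjusted p = 0.00222), with no difference from WT called for either. The Nqo1 difference was called below WT with normexp background correction (-0.58, adjusted p = 0.0360) and the stricter filter on dim probes (-0.72, adjusted p = 0.0487). It was also called below WT without fasted LKO replicate 5, fed LKO replicate 5, fasted WT replicate 1 or fed WT replicate 3 (-0.82 to -0.78). That of Gclm was called above WT after quantile normalization (0.39, adjusted p = 0.0187), among other settings. Over the list 11 of 36 were higher and 15 lower (22.9% and 26.5% over all genes), with a median of -0.13. The change was called above that of WT for 6 of the 36 and below it for 5. The 15 lower in fasted LKO livers included the NADPH-forming Me1, at -2.12 (adjusted p = 2.02e-05), which is also a lipogenic gene.

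**Figure D4:**
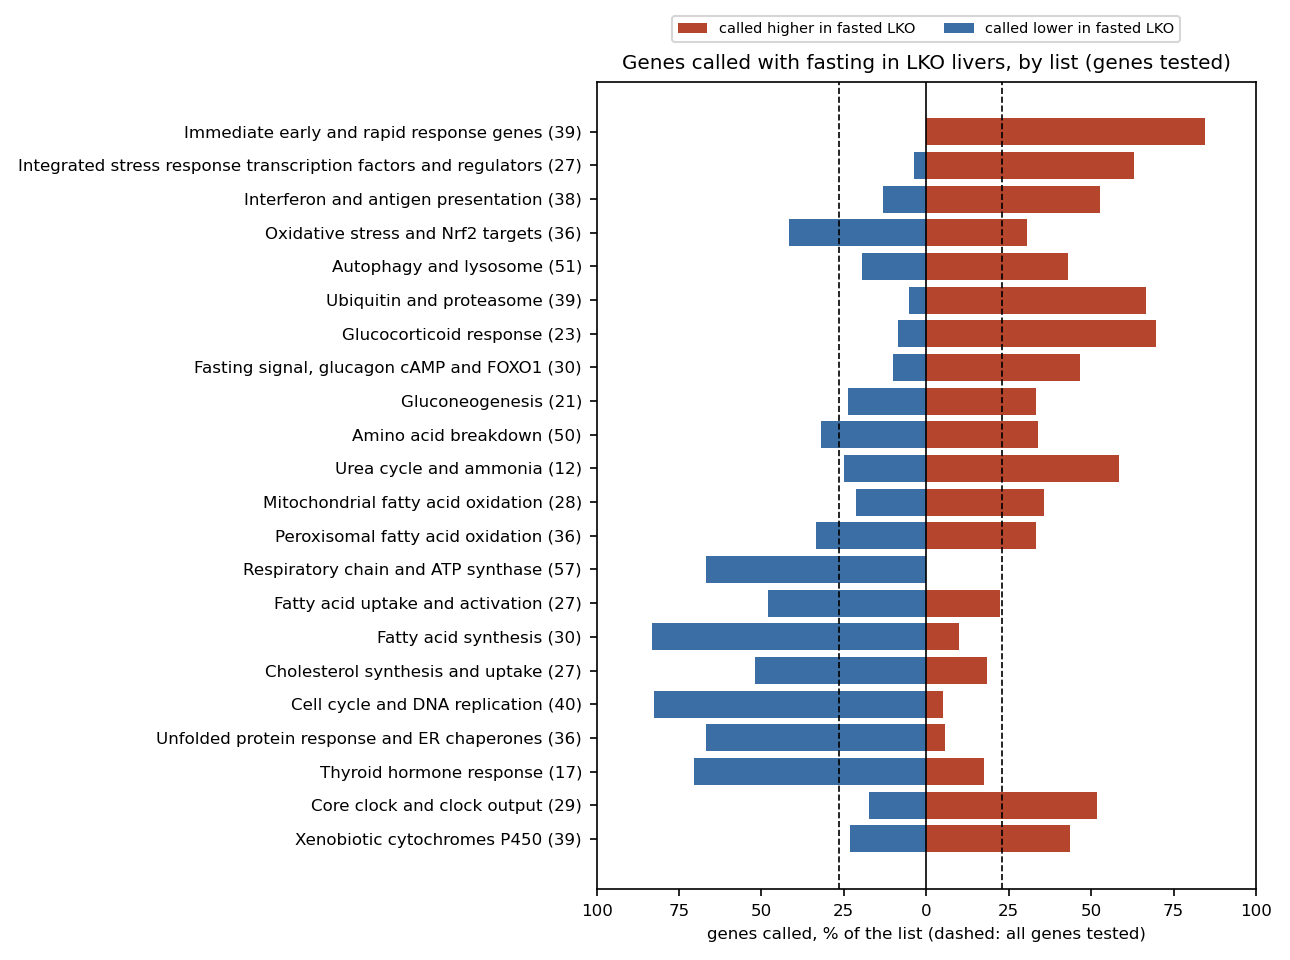
Share of the tested genes of each list called higher (right) or lower (left) in fasted than in fed LKO livers, with the number tested in brackets. Dashed lines mark the shares over all genes, 22.9% higher and 26.5% lower; 33 of 39 immediate early genes lie on the higher side and 38 of 57 respiratory chain genes on the lower side.

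Genes that respond to fasting signals changed in LKO livers, and the signals themselves were not measured. Of 23 glucocorticoid-responsive genes, 16 were higher and 2 lower, with a median change of 0.85 in LKO and 0.84 in WT livers. Tat, the tyrosine aminotransferase induced by cortisol-like steroids, had levels of 8.23 to 8.77 (median 8.45) in fasted LKO livers, against 7.38 to 8.06 (median 7.80) in fed LKO livers. Its change was 0.69 ± 0.11 (adjusted p = 2.23e-05), and Fkbp5, a chaperone of the receptor, changed by 0.71 ± 0.15 (adjusted p = 5.00e-04); no difference from WT was called for Tat (difference -0.20, adjusted p = 0.444) or Fkbp5 (difference -0.37, adjusted p = 0.278). The metallothionein Mt2 rose by 3.48 ± 0.68 (adjusted p = 2.58e-04) with overlap, because fed LKO replicate 3 stood at 9.32 while the other fed livers had 3.27 to 4.35. Of 30 genes of glucagon, cAMP and FOXO1 signalling, 14 were higher and 3 lower (median 0.19). In WT livers 18 were higher and 4 lower (median 0.40). The LKO change was called above that of WT for 5 and below it for 4. Over all genes 22.9% were called higher and 26.5% lower in fasted LKO livers. Ppargc1a, a coactivator of gluconeogenesis and mitochondrial genes, rose by 1.23 (adjusted p = 1.28e-04), Igfbp1, a FOXO1 target secreted by the liver, by 3.18 (adjusted p = 2.41e-06), and Klf11 by 2.88 (adjusted p = 8.27e-11); of the 3, a difference from WT was called for Klf11 (1.02, adjusted p = 0.0080) and not for Ppargc1a (-0.51, adjusted p = 0.327) or Igfbp1 (1.26, adjusted p = 0.17). The Klf11 difference was not called with normexp background correction (0.22, adjusted p = 0.367) or in the authors' deposited table (0.39, adjusted p = 0.151); 4 of 6 fed LKO livers had it well above background. Igfbp1 in fed LKO livers was uneven, at 3.67 to 6.83 (median 5.92), whereas the fasted range was 8.43 to 8.94 (median 8.78).

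Genes of glucose metabolism moved in both directions in fasted LKO livers. In the list of glycolysis, fructose and glycogen 75% were called and in the gluconeogenic list 57.1%, against 49.5% over all genes. Pklr, the pyruvate kinase of liver, fell by 2.97 in LKO livers (adjusted p = 2.03e-07) with a WT change of -2.98, and no difference was called (difference 0.01, adjusted p = 0.992). Of 28 genes of glycolysis, fructose and glycogen, 7 were higher and 14 lower (median -0.35). Among 21 gluconeogenic genes 7 were higher and 5 lower (median 0.03). For 11 the LKO change lay below that of WT, against 10.5% of all genes. Got1, a transaminase of the malate shuttle, rose by 1.24 (adjusted p = 5.92e-06), less than in WT livers (difference -1.06, adjusted p = 0.00691). Gpd1, the glycerol phosphate dehydrogenase that brings glycerol into glucose, fell by 1.19 in LKO livers (adjusted p = 5.85e-08) with no overlap, where the WT change was -0.03 (adjusted p = 0.894). Pcx, pyruvate carboxylase, changed by 0.12 (adjusted p = 0.138) in LKO and 0.68 (adjusted p = 3.10e-07) in WT livers; the LKO change was called without fed LKO replicate 3, at 0.16 (adjusted p = 0.0358), after quantile normalization, at 0.19 (adjusted p = 0.0265), and in the authors' deposited table, at 0.19 (adjusted p = 0.0311). G6pc changed by -0.30 (adjusted p = 0.301).

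Amino acid and nitrogen genes changed in both directions. Of the urea cycle list 83.3% were called and of the amino acid breakdown list 66%, against 49.5% over all genes. Of 12 urea cycle and ammonia genes, 7 were higher and 3 lower (median 0.26). Cps1, which fixes ammonia, rose by 0.61 (adjusted p = 2.99e-04) and Asl by 0.87 (adjusted p = 7.08e-07), while Otc, between them in the cycle, fell by 0.81 (adjusted p = 7.80e-08). Its fall was larger than in WT livers, with a difference of -0.44 (adjusted p = 0.0148). Among 50 genes of amino acid breakdown 17 were higher and 16 lower (median 0.06). For 22 the change was called below that of WT, against 10.5% of all genes. In WT livers 31 of the 50 were higher and 3 lower (median 0.42). The serine dehydratase Sds changed by 0.16 (adjusted p = 0.52), against 1.07 (adjusted p = 3.20e-04) in WT livers, but its homologue Sdsl rose by 1.02 (adjusted p = 1.30e-05) and Oat, ornithine aminotransferase, by 1.05 (adjusted p = 1.25e-05). Slc7a1, a carrier of arginine and lysine that is low in normal liver, had levels of -1.81 to -0.76 (median -1.30) in fasted LKO livers, against -3.76 to -1.87 (median -3.26) in fed LKO livers. It rose by 1.81 ± 0.25 (adjusted p = 5.25e-06) with no overlap against a WT change of 0.17, a difference of 1.64 (adjusted p = 0.00434). The related carrier Slc7a2 and the mitochondrial carrier Slc25a47 rose by 1.56 (adjusted p = 2.85e-08) and 1.90 (adjusted p = 4.06e-09), where the WT changes were 1.66 and 1.50, with no difference called for either (differences -0.10, adjusted p = 0.802 and 0.40, adjusted p = 0.239).

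Subunits of the respiratory chain and ATP synthase, which move electrons and protons to make ATP, were slightly lower in fasted LKO livers. Of 57 subunits tested, 0 were higher and 38 lower, with a median change of -0.20 against -0.04 over all genes and 0.07 in WT livers. Of the list 66.7% were called, against 49.5% over all genes. In 26 subunits the LKO change was called below the WT change, against 10.5% of all genes. The size of this shift depended on the scaling: after quantile normalization the median was -0.12, with 1 higher, 28 lower and 14 below WT, and in the authors' deposited table it was -0.12, with 2 higher, 25 lower and 15 below WT. Without fed LKO replicate 3 the count of lower subunits was 46 and the count below WT 43, while without each of the other animals 32 to 40 were lower and 20 to 28 below WT. Ndufs8, an iron-sulphur subunit of complex I, had levels of 5.47 to 5.58 (median 5.52) in fasted LKO livers, against 6.04 to 6.12 (median 6.09) in fed LKO livers. The groups did not overlap and it fell by 0.55 (adjusted p = 2.05e-10), more than in WT livers (difference -0.33, adjusted p = 2.05e-04). Atp5k, a subunit of ATP synthase, fell by 0.58 (adjusted p = 2.89e-07), and Atp5g1, which forms part of the rotor, fell by 0.61 (adjusted p = 1.77e-08), although probes of Atp5g1 ran from -0.66 to 0.23.

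Fatty acid oxidation genes, the classical PPARA targets, went in both directions in fasted LKO livers. Of the mitochondrial list 57.1% were called and of the peroxisomal list 66.7%, against 49.5% over all genes. Of 28 mitochondrial genes 10 were higher and 6 lower with a median change of 0.05 (-0.02 without fed LKO replicate 3), against 0.97 in WT livers, and for 24 the LKO change was called below the WT change. Of 36 peroxisomal genes 12 were higher and 12 lower (median 0.03), and for 27 the change was below that of WT. Over all genes 10.5% were called below WT. Hadha and Cpt2, enzymes of the mitochondrial spiral and of carnitine transfer, changed by -0.11 (adjusted p = 0.223) and -0.01 (adjusted p = 0.934) in LKO livers, where WT livers had 0.92 and 1.03. Slc22a5, the carnitine importer, still rose by 1.06 (adjusted p = 2.46e-06), and Acot2, a mitochondrial thioesterase, by 1.04 (adjusted p = 8.86e-05); both rose less than in WT livers (differences -0.97, adjusted p = 0.0026 and -2.90, adjusted p = 7.16e-07). Krt23, a keratin, changed by 0.53 (adjusted p = 0.0528) in LKO livers and 4.18 in WT livers; the LKO change was called with slide as a block (adjusted p = 0.0195), in the 12 LKO animals alone (adjusted p = 0.0201), after quantile normalization (0.54, adjusted p = 0.0483) and with the stricter filter on dim probes (adjusted p = 0.0452). It was also called without fasted LKO replicate 6, at 0.65 (adjusted p = 0.019), and without fed LKO replicate 6, at 0.63 (adjusted p = 0.0257). G0s2, an inhibitor of triglyceride lipase, moved the opposite way from WT: its levels were 2.21 to 3.26 (median 2.83) in fasted LKO livers, against 2.63 to 4.96 (median 3.59) in fed LKO livers, a change of -0.93 ± 0.35 (adjusted p = 0.035), against 3.59 (adjusted p = 3.51e-07) in WT livers, a difference of -4.52 (adjusted p = 8.42e-06). The LKO fall itself was not called without fasted replicate 1, 2 or 3 or fed replicate 4, 5 or 6, with changes of -0.93 to -0.67 and adjusted p of 0.0513 to 0.1003. Fabp7, a fatty acid binding protein best known from brain, rose by 1.50 (adjusted p = 8.65e-06) with a WT change of 0.92 and no difference called (difference 0.59, adjusted p = 0.226).

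**Figure D5:**
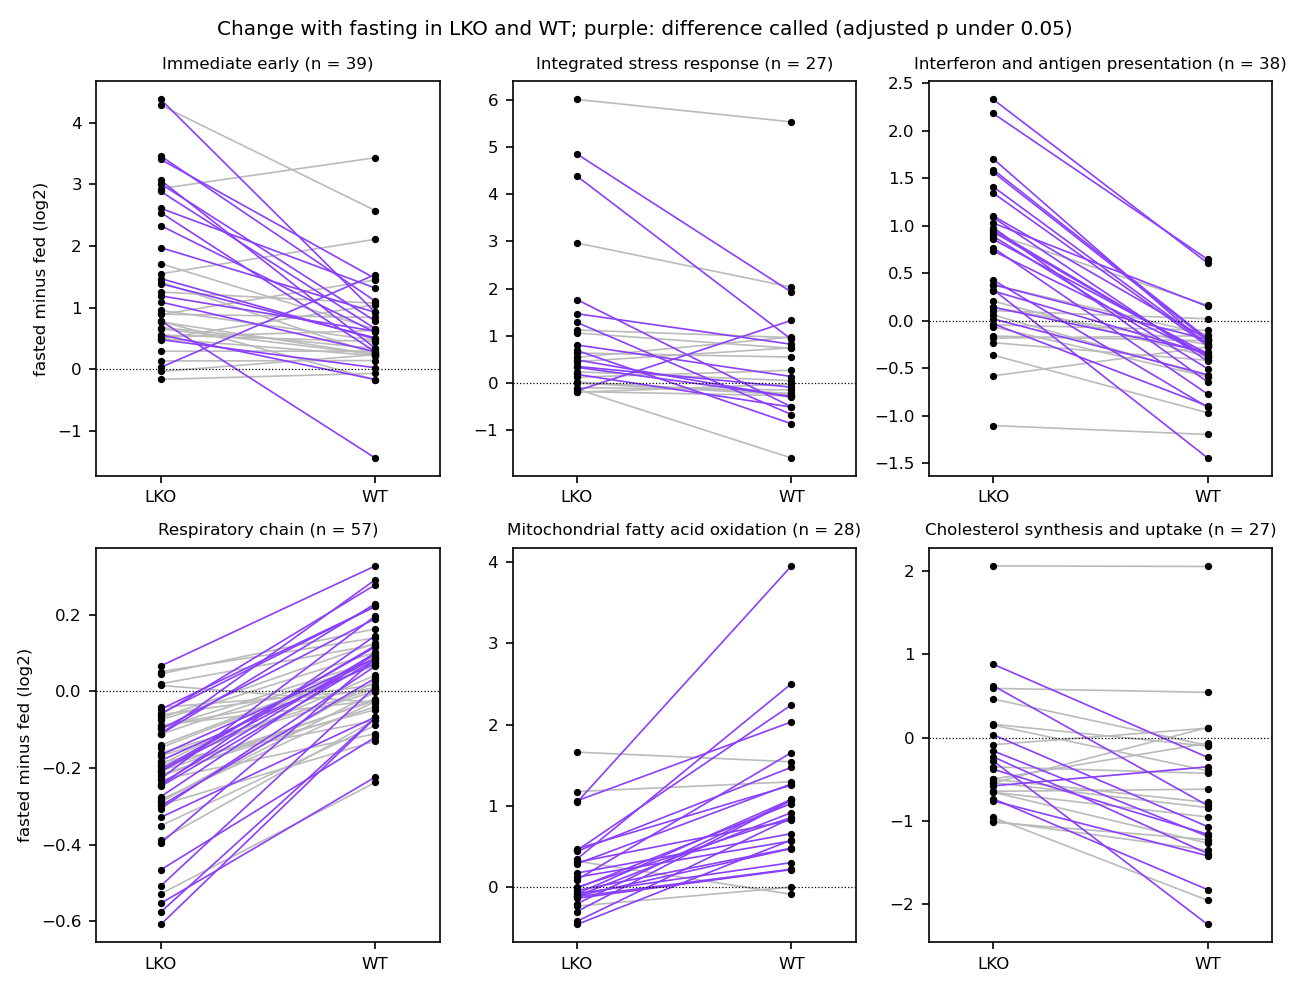
Change with fasting, fasted minus fed in log2 units, in LKO (left) and WT livers (right) for the genes of 6 lists, 1 line per gene, purple where the difference between the genotypes was called. Purple lines fall towards WT for 17 genes of the immediate early panel, where 1 climbs, and for 24 genes of the interferon panel. They climb towards WT in the respiratory chain and mitochondrial fatty acid oxidation panels (26 and 24 genes).

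Some sterol genes responded differently from WT livers. Of 27 genes of cholesterol synthesis and uptake 5 were higher and 14 lower (median -0.38), so 70.4% were called against 49.5% over all genes. In WT livers 2 were higher and 19 lower (median -0.81). For 9 the LKO change was called above that of WT and for 1 below it, against 7.63% and 10.5% over all genes. Cyp51, a demethylase late in the pathway, rose by 0.62 (adjusted p = 0.00492) in LKO livers, while its WT change was -0.81 (adjusted p = 0.00144). Insig2, which retains the sterol sensor in the endoplasmic reticulum, rose by 2.06 (adjusted p = 8.85e-09) in LKO livers with a WT change of 2.05, and no difference was called (difference 0.01, adjusted p = 0.992). Enzymes of bile acid synthesis parted. Cyp7a1, the rate-limiting one, had levels of -1.45 to 0.55 (median -0.05) in fasted LKO livers, against 2.58 to 3.77 (median 3.59) in fed LKO livers. Its change was -3.63 ± 0.40 (adjusted p = 3.29e-07), and the difference from the WT change was -2.89 (adjusted p = 0.00217). Cyp8b1, which sets cholic acid output, rose by 1.26 (adjusted p = 3.45e-04), less than in WT livers (difference -1.23, adjusted p = 0.0272), and Nr0b2, the repressor SHP, rose by 1.25 (adjusted p = 2.23e-05), with no difference from WT called (difference 0.76, adjusted p = 0.0757) except with slide as a block (0.80, adjusted p = 0.0443) and without fed WT replicate 4 (0.90, adjusted p = 0.0336).

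Secretory pathway genes were lower in fasted LKO livers. Of 36 genes of the unfolded protein response and the chaperones of the endoplasmic reticulum, 2 were higher and 24 lower, with a median of -0.41 in LKO and -0.75 in WT livers. Of the list 72.2% were called, against 49.5% over all genes. Sec61b, part of the channel that new proteins enter, fell by 1.11 (adjusted p = 7.28e-11), Ssr1, of the complex attached to it, fell by 0.95 (adjusted p = 8.59e-09), and Edem1, which marks misfolded glycoproteins, fell by 1.17 (adjusted p = 1.78e-08). For none of these 3 was a difference from WT called by limma (differences 0.24, adjusted p = 0.0888, 0.07, adjusted p = 0.761 and -0.38, adjusted p = 0.0903). The Sec61b difference was called after quantile normalization (0.40, adjusted p = 0.00772), in the authors' deposited table (0.39, adjusted p = 0.00907) and without fasted WT replicate 5 or fed WT replicate 4 (0.29, adjusted p = 0.0399 and 0.0400). That of Edem1 was called without fasted LKO replicate 5 (-0.44, adjusted p = 0.044). The chaperone Hspa5 changed by -0.05 (adjusted p = 0.819). Herpud1 and Atf6 were the 2 members that rose, Atf6 by 0.61 (adjusted p = 6.38e-07), or 0.36 over the mean of its probes (adjusted p = 0.0574). Cell cycle and DNA replication genes were lower as well, 33 of 40 with 2 higher (median -0.84), so 87.5% were called. Mcm2, a subunit of the replicative helicase, fell by 1.61 (adjusted p = 1.35e-05), and Ccnd1, cyclin D1, fell by 1.11 (adjusted p = 1.90e-06), both without overlap; the WT changes were -1.48 and -1.30, with no difference called (differences -0.13, adjusted p = 0.853 and 0.19, adjusted p = 0.595). Cdt1, a licensing factor, went the other way and rose by 0.89 (adjusted p = 3.70e-04).

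Of 17 genes of the thyroid hormone response, 3 were higher and 12 lower (median -0.36). Of the list 88.2% were called, against 49.5% over all genes. The lower ones included Thrb, the thyroid hormone receptor beta, at -0.33 (adjusted p = 1.19e-04), and Dio1, the deiodinase, at -0.72 (adjusted p = 0.00721). Of 36 genes of the growth hormone axis and of sex-patterned liver expression, 8 were higher and 10 lower (median -0.11), so 50% were called against 49.5% over all genes. Hsd3b5, a male-patterned steroid dehydrogenase, had levels of 1.88 to 3.14 (median 2.67) in fasted LKO livers, against 3.85 to 5.90 (median 5.50) in fed LKO livers. Its change was -2.71 ± 0.28 (adjusted p = 1.07e-07), smaller than the -5.55 of WT livers, and the difference was 2.85 (adjusted p = 9.09e-05). Cux2, a female-patterned factor, rose by 2.52 (adjusted p = 1.51e-04), with 6 of 6 fasted and 1 of 6 fed livers well above background. All livers were sampled at 1 time of day, so clock genes are a single phase. Of 29, 15 were higher and 5 lower (median 0.24), so 69% were called. Ciart, a repressor of the clock, rose by 1.13 (adjusted p = 5.02e-05) and Dbp, an output factor, by 0.85 (adjusted p = 0.00292). Among 39 cytochrome P450 and related genes 17 were higher and 9 lower (median 0.22), so 66.7% were called. Por, the electron donor of all microsomal P450s, rose by 0.92 (adjusted p = 3.73e-07), Cyp3a11, a major drug oxidase, by 0.68 (adjusted p = 1.03e-04), above WT by 0.66 (adjusted p = 0.0159), and Cyp2c70, which hydroxylates bile acids in mice, fell by 3.70 (adjusted p = 2.81e-09).

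Markers of other liver cells were examined beside these lists. Of 17 endothelial markers 1 was higher and 8 were lower (median -0.27), so 52.9% were called against 49.5% over all genes. For 11 the change lay below that of WT, against 10.5% of all genes. In WT livers 10 of these markers were higher and 0 lower. Their summed signal was 42.5 to 52.42 in fasted against 49.15 to 69.83 in fed LKO livers. Of the receptors of sinusoidal cells, Clec4g fell by 0.53 (adjusted p = 0.00153) and Fcgr2b fell by 0.51 (adjusted p = 0.00226); probes of Clec4g ran from -0.53 to 0.02. Lyve1, a hyaluronan receptor of the same cells, rose by 0.89 (adjusted p = 1.14e-05). Pecam1 (0.13, adjusted p = 0.328) and Stab2 (-0.02, adjusted p = 0.902) were not called. Of 18 stellate cell and fibroblast markers 4 were higher and 9 lower (median -0.21), so 72.2% were called. The collagen genes Col3a1 fell by 2.16 (adjusted p = 2.32e-07) and Col1a1 fell by 1.63 (adjusted p = 7.49e-05). The summed signal overlapped at 120.6 to 146.3 in fasted against 111.7 to 135.7 in fed livers. The 14 hepatocyte markers summed to 6793 to 7235 in fasted and 6792 to 7319 in fed LKO livers, and of 10 cholangiocyte markers none was called by limma. The part of these markers in the results above was not tested.

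Several genes with large changes lie outside the lists. Msmp, a secreted microprotein, had a fasted range of -1.29 to 0.82 (median -0.71) in LKO livers and was well above background in only 1 of 6 fed livers, with a change of 5.07 (adjusted p = 3.54e-08). Cntnap1 rose by 3.78 (adjusted p = 2.02e-10) and Srrm4, a splicing regulator known from neurons, by 3.21 (adjusted p = 1.87e-09), though each had a second probe with 0.58 and -0.04. Bcl2l14 rose by 3.38 (adjusted p = 3.52e-07), against 1.20 in WT livers. Slc22a7, an organic anion carrier, had levels of 0.43 to 2.12 (median 1.02) in fasted LKO livers, against 3.96 to 5.91 (median 5.38) in fed LKO livers, a change of -4.06 (adjusted p = 4.17e-08). Bhlha15, a factor of secretory cells, fell by 3.40 (adjusted p = 1.29e-05). In WT livers 0 of 5 fasted ones had it well above background, so the WT change has no measured size. The difference of 2.42 (adjusted p = 0.030) rests on that signal and was not called with normexp background correction (0.33, adjusted p = 0.712) or in the authors' deposited table (0.71, adjusted p = 0.419). Hcar2, the receptor for hydroxybutyrate and niacin, rose by 2.06 (adjusted p = 0.00195) in LKO livers, 2 of 6 fed ones having it well above background, and 0 of 5 fasted and 1 of 5 fed WT livers did. Clec2h rose by 1.31 (adjusted p = 0.0172) against -1.69. The fasted and fed LKO ranges of Hcar2 and Clec2h overlapped.

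Some genes were detected in 1 feeding state only. No probe was well above background in any fed LKO liver, with a probe above it in all 6 fasted ones, for 15 genes, and the reverse held for 16. Folds for these are lower bounds, taken from the bright group's mean over the lowest measurable signal. Kcnk1, a potassium channel, was at least 2.49-fold higher in fasted LKO livers. Lower bounds in the other direction were at least 6.98-fold lower for Chrna4, a nicotinic receptor subunit, and at least 5.42-fold lower for Ces4a, a carboxylesterase. Top2a, the topoisomerase of dividing cells, was at least 3.40-fold lower. Its fed mean includes fed LKO replicate 3 at -1.60, where the next highest fed liver had -3.27.

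The median SD between animals over genes was 0.157 in fasted and 0.183 in fed LKO livers, and 244 genes in the fasted and 342 in the fed group had an SD above 1. Among genes with a wide spread in fed LKO livers was Rgs16, a regulator of G protein signalling, at -2.19 to 4.61 (median 3.59), against 4.77 to 6.03 (median 5.63) in fasted livers, and fed replicate 3 was its lowest animal. Lcn2, an iron-binding acute phase protein, ranged over 1.26 to 2.76 (median 1.82) in fasted and 0.37 to 6.98 (median 1.20) in fed livers, with fed replicate 3 the highest. Cyp2b10, a drug-inducible P450, ranged over -0.46 to 1.93 (median 0.13) in fasted and -0.68 to 5.75 (median 0.37) in fed livers, where fed replicate 1 was highest at 5.75. Neither Lcn2 (-0.18, adjusted p = 0.874) nor Cyp2b10 (-0.60, adjusted p = 0.578) was called.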

How the data were processed

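RNA of whole liver was labelled with Cy3 and hybridised to 1-colour Agilent arrays, 24 of them, per the labels' protocols. The scanner files hold spot intensity values made by the authors with Agilent Feature Extraction 10.10.1.1, per the file headers and the submitters' processing notes; the deposited log2 table holds the authors' own normalized values and was used as an alternative. The main values were log2 of the processed signal minus each array's 75th percentile, with control and outlier spots left out and spots of a probe averaged. The 2 WT animals with 2 arrays each were averaged, leaving 22 animals. Probes well above background in at least 5 of 22 animals were kept, and the probe with the highest mean stood for its gene, which gave 17331 genes. Each level rests on arrays, whose number limits the precision: the median standard error of the LKO change was 0.101.

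One limma 3.58.1 fit in R 4.3.3 with 4 group means gave the LKO change (fasted minus fed), the WT change and their difference, with Benjamini-Hochberg adjustment over all 17331 genes and a threshold of 0.05. The fit was tested on simulated data. P-values set each difference of group means against the spread between animals, pooled over the 4 groups. Alternatives were normexp background correction with an offset of 50, quantile normalization, the authors' deposited table, the filter on dim probes, the mean of a gene's probes, slide or replicate number as a block, LKO arrays alone, and leaving out each animal. Leave-out and scaling counts for 6 lists were added after the data had been seen. RefSeq promoter windows of GRCm38.p6 were read with Biostrings 2.70.1.

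The gene lists and the genes described were chosen with earlier results of these data known. Named genes are the first 4 of each list, its 4 largest called changes, the 15 largest changes in each direction without overlap, the 10 largest differences from WT in each direction, the 5 largest SDs in each LKO group, the 5 highest bounds in each direction and Ppara, and not all are named. Atf6, B2m, Cdt1, Ciita, Cyp51, Dusp8, Egr2, Flcn, H2-K1, Hadha, Herpud1, Irf7, Irf9, Klf6 and Nupr1 fall outside that rule and were chosen after their values were seen. Some genes of these lists are not reported here.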

Additional observations from a re-analysis of the deposited data

Results flagged for a closer look

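By Dixon's test, single animals stood apart from the other 5 of their LKO group in 33 of 240 gene and group pairs. The pairs come from the 120 genes named. Chance alone marks about 1 in 20 independent groups. Some genes were named for a large SD within a group, and many flags share 1 animal, so that rate is no yardstick here. Of the 33, 22 were fed LKO replicate 3. That animal had the highest level of its group, on the log2 scale, at 0.76 for Btg2, 7.54 for Ctsl, 4.202 for Cyp51, 4.46 for Edem1, -1.08 for Hcar2, 3.04 for Hmox1, 6.98 for Lcn2 and 9.32 for Mt2. It was also highest at 2.24 for Nupr1, 6.81 for Pcx, 4.16 for Sdsl, 1.34 for Slc22a5, -1.87 for Slc7a1, 2.55 for Slc7a2 and -1.60 for Top2a. It had the lowest level at 7.68 for B2m, 2.48 for Dio1, 7.72 for H2-K1, 3.85 for Hsd3b5, 5.23 for Otc, -2.19 for Rgs16 and 3.96 for Slc22a7. In the fasted group the animals were fasted replicate 2 at 1.58 for Nr0b2 (highest), fasted replicate 3 at 0.82 for Msmp (highest), fasted replicate 5 at -2.11 for Bhlha15 (highest), fasted replicate 5 at -0.38 for Lyve1 (highest), fasted replicate 6 at -2.39 for Bcl2l14 (lowest) and fasted replicate 6 at 5.12 for Otc (highest). In the fed group, apart from replicate 3, they were fed replicate 1 at 5.75 for Cyp2b10 (highest), fed replicate 1 at 3.74 for Dbp (highest), fed replicate 1 at 2.49 for Isg15 (lowest), fed replicate 5 at -6.75 for Egr2 (lowest) and fed replicate 6 at -1.06 for Fabp7 (highest).

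The change with fasting differed between LKO and WT livers, by the interaction test with Benjamini-Hochberg adjustment, for 67 of the 120 genes named. Over all genes tested it differed for 3136 of 17331 (18.1%). The named genes were in part chosen by this difference or after their values were seen. Their share therefore cannot be set against that over all genes. No liver was well above background in the fed LKO group for Kcnk1, in the fed WT group for Egr2 or in the fasted WT group for Bhlha15 and Hcar2, so the differences of these 4 rest partly on background signal and are not measured sizes. The LKO change exceeded the WT change, on the log2 scale, by 3.45 for Atf3, 3.00 for Hcar2, 2.99 for Clec2h, 2.92 for Gdf15, 2.85 for Hsd3b5, 2.73 for Nr4a1, 2.42 for Bhlha15, 2.35 for Fos and 2.27 for Nupr1. The next excesses were 2.26 for Klf6, 2.23 for Egr2, 2.23 for Dusp8, 2.18 for Bcl2l14, 2.11 for Kcnk1, 1.97 for Mx1, 1.95 for Ddit3, 1.93 for Maff and 1.78 for Ifit1. These were followed by 1.72 for Usp18, 1.64 for Slc7a1, 1.61 for Ifit3, 1.53 for Rsad2, 1.46 for Trp53inp1, 1.45 for Hmox1, 1.44 for Cyp51, 1.40 for Plk3 and 1.40 for Srxn1. Lower excesses were 1.39 for Irf7, 1.30 for Srrm4, 1.30 for Ifit2, 1.29 for Btg2, 1.19 for Gclc, 1.18 for Cntnap1, 1.11 for Isg15, 1.05 for Jun and 1.02 for Klf11. Below them came 0.98 for Fosb, 0.91 for Flcn, 0.88 for Irf9, 0.84 for Cdt1, 0.74 for Herpud1, 0.66 for Cyp3a11, 0.65 for Sqstm1, 0.61 for Fnip1 and 0.44 for Atf4. The lowest excess was 0.40 for Atf6. The LKO change minus the WT change was below 0 at -4.52 for G0s2, -3.66 for Krt23, -2.90 for Acot2, -2.89 for Cyp7a1, -1.23 for Cyp8b1, -1.17 for Gpd1, -1.06 for Got1, -1.04 for Cpt2 and -1.02 for Hadha. It was also below 0 at -0.97 for Slc22a5, -0.93 for Clec4g, -0.91 for Sds, -0.77 for Fcgr2b, -0.76 for Lyve1, -0.64 for Fbxo31, -0.56 for Pcx, -0.54 for Atp5g1 and -0.51 for Atp5k. The differences nearest 0 were -0.48 for Pecam1, -0.44 for Otc and -0.33 for Ndufs8.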

How the results depend on the processing

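The 8571 genes called with fasting in LKO livers, 3972 of them higher and 4599 lower, stayed within 1.5 times those counts under every alternative run. The count of genes called and changed at least 2-fold, 1205, was 645 with normexp background correction and 731 in the authors' deposited table. Leaving out each animal in turn gave 8131 to 8768 genes called, 3755 to 3957 higher, 4318 to 4811 lower, 1126 to 1229 at least 2-fold changed, and 2724 to 3989 with a difference between LKO and WT livers. The highest count of differences was that without fed LKO replicate 3. Same-numbered LKO animals had correlations of -0.065 to 0.117 in their deviations from the group mean. The highest correlations with other numbers were 0.011 to 0.062. The same number gave the higher value for replicates 2, 4 and 6 and the lower value for 1, 3 and 5. With the replicate number as a block 8388 genes were called, 3894 higher and 4494 lower, and 1200 at least 2-fold. In that setting 2794 genes differed from WT. With slide as a block 8631 were called, and each slide held 2 fasted and 2 fed LKO animals. The LKO minus WT difference for Fgf21 was 0.48 in the reported setting (adjusted p = 0.727) and -1.63 with normexp background correction (adjusted p = 0.00653), a called difference in the other direction. The change of B2m, -0.18, was 0.0896 over the mean of its probes and 0.0077 within slide 1; the cause was not tested. Of 120 named genes, 114 kept the call of their LKO change under all alternatives and 97 that of their difference from WT; G0s2 and Atf6 lost the call of the LKO change in at least 1. The differences that were lost in at least 1 were those of Bhlha15, Klf11, Plk3, Btg2, Cdt1, Cyp8b1, Nupr1, Pecam1, Sds and Atf6. The LKO changes of Krt23, Pcx and H2-K1 gained a call in at least 1, and so did 12 differences, those of Gabarapl1, Gclm, Nqo1, Sec61b, Nr0b2, Edem1, Dbp, Ctsl, Hspa5, Msmp, Stab2 and Myc. Without fed LKO replicate 3 the differences called were 0.36 for Gclm (adjusted p = 0.00628), 0.68 for Hspa5 (adjusted p = 0.0366), 1.68 for Msmp (adjusted p = 0.0359) and -0.38 for Stab2 (adjusted p = 0.0142), besides Ctsl. Among list medians, that of the respiratory chain moved from -0.20 to -0.12 and that of mitochondrial fatty acid oxidation from 0.05 to 0.15 under quantile normalization. Fed levels near background limit the folds of Fgf21, Egr2, Msmp, Cux2, Hcar2 and Klf11.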
